A study of Mus musculus with 4 samples.

Results

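The control epithelium consisted of unlabelled cells sorted beside lineage-traced clones, and its 72 h and 48 h sets were compared mouse by mouse. Members were barcodes of the control gate with at least 1000 gene UMIs (unique molecular identifiers, each standing for 1 captured transcript), at least 500 genes, a mitochondrial share under 20% and a top hashtag with at least 60% of the barcode's hashtag counts. They numbered 1279 of the 2011 cells that passed these limits, out of 5452 barcodes deposited, and the other 732 cells were clone cells. The 48 h set held 633 cells (152, 91, 228 and 162 in mice 1 to 4), and the 72 h set held 646 (247, 134, 82 and 183 in mice 5 to 8).

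All 8 mice carried the Lgr5-EGFP-IRES-CreERT2 allele and the Rosa26-mTmG reporter and received 4-OH-tamoxifen, 4 of them 48 h and 4 of them 72 h before tissue was taken. The Lgr5 promoter drives both EGFP and the inducible recombinase, so both alleles and the tamoxifen were shared by both times. Control cells were the GFP-negative, non-recombined epithelium of the same animals as the clones, and since EGFP of the Lgr5 allele also fluoresces green, the gate may leave out cells with high Lgr5. They came from crypts of distal small intestine after the villi had been scraped away, were stained for EpCAM, CD31 and CD45, and carried 1 hashtag antibody per mouse. Cells were sequenced in a pair of pools, and pool 1 held the control cells of mice 1, 2, 5 and 6, pool 2 those of mice 3, 4, 7 and 8. Each time was therefore present in both pools with 2 control mice, and the GFP-high clones of a mouse lay in the other pool than its control cells. Age and sex were not stated in the labels. The hours count from labelling, and the control cells had not recombined, so the comparison asks how far unlabelled epithelium differed between both sets of mice.

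The crypt is renewed by stem cells at its base, whose daughters divide in the transit-amplifying zone and become absorptive enterocytes or secretory cells. Paneth cells sit between the stem cells at the crypt base and store alpha-defensins (small antimicrobial peptides), lysozyme and other host defence proteins in granules. Goblet cells make mucus, and enterocytes carry the digestive enzymes and transporters. Most alpha-defensin genes of the mouse lie in 1 cluster on chromosome 8 and are close copies of each other.

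Control cells had a median of 17634 to 27636 UMIs and 4066.5 to 4956 genes per mouse, a median mitochondrial share of 6.18% to 9.11%, and 1975221 to 5452604 UMIs summed per mouse. The 4 quality measures tested were the number of cells and the median UMIs, genes and mitochondrial share. None passed for a difference between the times in an exact two-sided permutation test over mice (adjusted p = 0.943 for each). The 72 h mice of pool 2 still had 5066.2 more UMIs per cell in the mean of medians than its 48 h mice. The median top-hashtag share, which was not tested, was 82.0%, 90.9%, 95.7% and 94.3% in mice 1 to 4. In mice 5 to 8 it was 76.5%, 75.6%, 80.1% and 88.7%, lower than at 48 h within each pool. Mouse 7 had the highest median mitochondrial share, 9.11% in 82 cells. At a limit of 50% its median was 27.5% in 245 cells, and the other mice had 10.0% to 17.1%. The cells were epithelial: Epcam had 4715 to 13830 UMIs in every mouse, while Col1a1, Col3a1, Cdh5 and Hba-a1 had 0, Pecam1 0 to 6, Cd3e 0 to 7 and Ptprc 0 to 32, and 1 cell of mouse 8 expressed 11 genes of the 22-gene immune list. Y-linked genes reached 157, 130 and 139 CPM (counts scaled to library size, the unit of all levels here) in mice 1, 5 and 7, 6.58 in mouse 2, and 1.10 to 2.26 in the other 4 mice, so this signal was spread unevenly over the mice. Clustering gave 14 clusters, with names rebuilt here from marker genes: 252 stem-like, 347 dividing, 40 dividing secretory, 245 goblet-like, 178 enterocyte-like, 42 Paneth-like, 31 tuft-like and 24 enteroendocrine-like cells. A further cluster of 119 cells, number 10, had 8 goblet and 4 secretory progenitor markers among its 50 leading genes. Among its 10 leading genes by ratio, which held Dll1, Creb3l1 and Spdef, progenitor markers outnumbered goblet markers by 3 to 1. It therefore stayed unnamed.

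Control epithelium of 72 h mice had higher RNA of Paneth cell products, among them 7 alpha-defensin genes. Summed over all control cells of a mouse, 12 of 10955 genes rose and 0 fell at an adjusted p under 0.05, which is 0.110% of genes tested (edgeR quasi-likelihood test with Benjamini-Hochberg adjustment, 4 against 4 mice). Of the 12, 7 are alpha-defensin genes (AY761184, Gm7861, Defa36, Defa34, Defa5, Defa26 and Defa20) and 4 are further products of Paneth cells or of digestion (Mptx2, Itln1, Clps and Habp2). The last, Tm4sf4, is a membrane protein of the tetraspanin-like family and was found mainly outside the Paneth-like cluster. Groups did not overlap for 10 of the 12, while 1.99% of all genes tested were higher in every 72 h mouse than in every 48 h mouse and 2.15% lower. In sums over cells, fewer cells of a type and less RNA per cell cannot be told apart. Beside the 12, 511 genes (4.66%) were higher and 436 (3.98%) lower at an unadjusted p under 0.05.

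The upstream DNA of Defa36 and Defa20 is printed because both genes rose and lie in the same array, and the files held it for these 2 of the 7 called defensins. The lines give the 100 bases before the start of each gene in RefSeq on GRCm38.p6, on the plus strand at chr8:21427328-21427427 for Defa36 and chr8:21509158-21509257 for Defa20. Capitals mark the motif TATAAA, the core of a TATA box.
Defa36: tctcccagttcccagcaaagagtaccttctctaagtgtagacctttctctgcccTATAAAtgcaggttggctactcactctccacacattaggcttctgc
Defa20: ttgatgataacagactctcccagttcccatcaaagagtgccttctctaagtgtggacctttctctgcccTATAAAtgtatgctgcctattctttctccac
Both windows end just before RefSeq's start, and for Defa36 that start lies inside the span GENCODE gives the gene, so its window reaches into that span. The windows overlap in 85 aligned columns and match in 75 of them (88.24%). TATAAA was searched on both strands, and 5.56% of 32851 promoter entries hold it in the same window (3.8% on the gene's own strand). Of 7 genes searched, only these 2 held it. The called genes Itln1, Mptx2, Habp2 and Tm4sf4 lacked it on both strands, as did Lyz1. Only this exact motif was searched, and other forms of a TATA box were not looked for. A match is a description of the sequence and was not tested against expression.

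AY761184 (chromosome 8, 21702519 to 21703645, GENCODE M21 on GRCm38), an alpha-defensin gene, was at 9.61, 6.33, 9.71 and 32.6 CPM in the 48 h mice 1 to 4 and at 292, 555, 1674 and 1481 CPM in the 72 h mice 5 to 8. Every 72 h mouse lay above every 48 h mouse, and within each time the pool 2 mice were the highest. The log2 fold change was 6.03 ± 0.40 (SE, adjusted p = 0.000175, edgeR quasi-likelihood test).

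Defa36 (chromosome 8, 21427411 to 21428391) was at 12.3, 15.6, 9.54 and 26.9 CPM at 48 h and at 273, 467, 1872 and 1874 CPM at 72 h. The log2 fold change was 5.84 ± 0.49 (SE, adjusted p = 0.000705, edgeR), with no overlap of the groups and the same order of pools at 72 h.

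Defa34 (chromosome 8, 21665797 to 21666732) was nearly absent at 48 h, with 0.30, 0.487, 0.883 and 8.86 CPM, and reached 53.6, 69.6, 327 and 362 CPM at 72 h (log2 fold change 6.45 ± 0.45, SE, adjusted p = 0.000175). Defa5 (chromosome 8, 21297439 to 21298375) was at 0.90 to 1.71 CPM in the 48 h mice, at 2.24 and 11.9 CPM in mice 5 and 6, and at 226 and 163 CPM in mice 7 and 8 (6.40 ± 0.62, adjusted p = 0.00198). Their annotated transcripts are 98.67% identical and share a run of 306 bases, so their reads may not be told apart and their separate levels are uncertain.

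The remaining 3 defensins are Gm7861, Defa26 and Defa20. Gm7861 (chromosome 8, 21593375 to 21594508) went from 0.90 to 14.9 CPM across the 48 h mice to 27.2 to 144 CPM across the 72 h mice (3.86 ± 0.33, SE, adjusted p = 0.000762). Defa26 (chromosome 8, 21618183 to 21618972) went from 2.70 to 14.9 CPM to 28.9 to 110 CPM (3.22 ± 0.22, adjusted p = 0.000175). Defa20 (chromosome 8, 21509258 to 21510237) had 0, 1, 1 and 2 UMIs in the 48 h mice and 7, 10, 30 and 69 in the 72 h mice (4.99 ± 0.60, adjusted p = 0.0124). None of the 3 overlapped between the times. AY761184 and Gm7861 are 95.26% identical, and identity over the 28 pairs of the 8 defensin transcripts compared (these 7 and Defa24) ranged from 55.89% to 98.67%, with a median of 73.88%. How reads of the closest copies were handled in counting is uncertain.

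Mptx2, a pentraxin of Paneth cells (chromosome 1, 173274382 to 173277777), was high in the 72 h mice of pool 2. It was at 2.10, 0.487, 3.35 and 4.57 CPM in mice 1 to 4, at 4.88 and 4.12 CPM in mice 5 and 6, and at 1064 and 272 CPM in mice 7 and 8. The groups overlapped, and the log2 fold change of 6.83 ± 0.91 (SE, adjusted p = 0.0182) was 1.65 in pool 1 and 7.41 in pool 2. The difference between the pools had an adjusted p of 0.459 in edgeR's pool-by-time term, which called 0 of 11221 genes (1082 at an unadjusted p under 0.05).

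Itln1, an intelectin that binds microbial sugars (chromosome 1, 171518122 to 171535294), was at 161, 75.5, 195 and 360 CPM at 48 h and at 344, 745, 2455 and 2021 CPM at 72 h (2.61 ± 0.34, SE, adjusted p = 0.0175). Its groups overlapped by 1 mouse, since mouse 5 lay below mouse 4. Clps, the colipase that anchors pancreatic lipase to fat droplets (chromosome 17, 28558149 to 28560766), was at 1.5 to 14.0 CPM and 21.5 to 159 CPM (3.73 ± 0.49, adjusted p = 0.0175). Habp2, a hyaluronan-binding serine protease (chromosome 19, 56287137 to 56320822), was at 0.90 to 4.29 CPM and 7.72 to 13.9 CPM (2.18 ± 0.28, adjusted p = 0.0173). Neither Clps nor Habp2 overlapped between the times.

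The most abundant Paneth products did not pass. Defa24, with the highest level of the family here, was at 1108, 1246, 1120 and 4330 CPM at 48 h and at 3721, 3915, 17849 and 14158 CPM at 72 h (2.13 ± 0.36, SE, adjusted p = 0.0868). Lyz1, the Paneth lysozyme, was at 66.3 to 419 CPM and 136 to 3068 CPM (3.08 ± 0.52, adjusted p = 0.0868). In both genes mouse 4 of the 48 h set lay above the lowest 72 h mouse. Of the 16 genes of the Paneth list, 6 passed and 12 were higher at an unadjusted p under 0.05, with none lower, and the median log2 fold change was 3.15 beside -0.01 over all genes tested. AY761184, Gm7861, Defa36, Defa34 and Defa26 stayed called whichever mouse was left out. Defa5 and Defa20 lost theirs without mouse 3 or mouse 4, Clps without mouse 1 or 6, Habp2 without mouse 2, 3, 6 or 7, and Itln1 and Mptx2 without mouse 2, 3, 4 or 6.

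**Figure D1:**
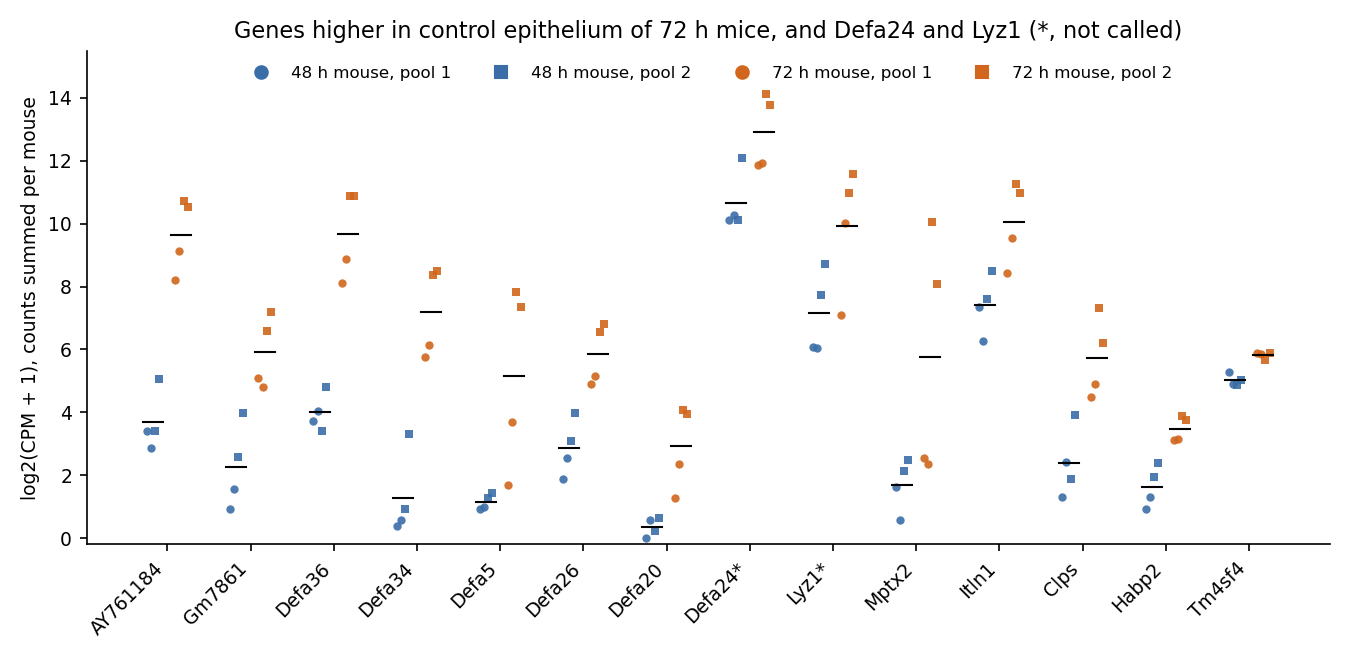
Levels in the control epithelium of each mouse, as log2(CPM + 1) of counts summed per mouse, for the 12 called genes and for Defa24 and Lyz1, which were not called. Points are mice (circles pool 1, squares pool 2), bars are means of the log2 values, and the 72 h points lie above the 48 h points without overlap for 10 of the 12 called genes.

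At 72 h most of the RNA of the called defensins lay in a small number of cells. The Paneth-like cluster held 42 cells, 1, 1, 7 and 10 in mice 1 to 4 and 7, 4, 3 and 9 in mice 5 to 8. Over all mice, in which the 72 h mice had most of the UMIs, it held 97.7% to 99.2% of the UMIs of AY761184, Gm7861, Defa36, Defa34, Defa5, Defa20 and Mptx2, 89.3% of those of Defa26, 90.3% of Clps, 82.2% of Habp2 and 74.0% of Itln1, but 7.17% of those of Tm4sf4. Of the UMIs of Defa24, which was not called, the cluster held 83.3%, 79.5%, 87.3% and 74.8% in mice 5 to 8. At 48 h much of the little Defa36 RNA lay outside the cluster, which held 0 of 41, 23 of 32, 9 of 54 and 51 of 94 UMIs in mice 1 to 4. Because the same genes define the cluster, its share of cells was not compared between the times. The size of the cluster also depended on the settings, with 15 cells at a clustering resolution of 0.6. Values per cell given here are for the 42 cells.

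No cell of the 48 h set had 100 or more Defa36 UMIs (0 of 633, which allows a share of up to 0.474%). In the 72 h set 11 of 646 cells did (1.70%, exact Clopper-Pearson 95% interval 0.853% to 3.03%), 3, 1, 2 and 5 of them in mice 5 to 8, and all 11 lay in the Paneth-like cluster. Intervals and limits of this kind cover counting error only. The 11 cells were spread over all 4 of the 72 h mice. Within the cluster, as a description with no test since these genes define it, the median Defa36 UMIs per cell were 0, 23, 0 and 0.5 in mice 1 to 4 and 0, 0, 635 and 135 in mice 5 to 8. The median cell of mice 5 and 6 thus had none, and the highest had 704 and 1116. Median depth of the cluster was 32615 UMIs per cell at 48 h and 33185 at 72 h.

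Cells of the Paneth-like cluster from 48 h mice nevertheless carried Defa24, though some had little Lyz1. Median Lyz1 UMIs per cell of the cluster were 2, 54, 133 and 7 in mice 1 to 4 and 15, 470, 534 and 980 in mice 5 to 8. At 48 h, 13 of 19 cells of the cluster had 100 or more Defa24 UMIs (median 140, range 50 to 4376), and at 72 h 20 of 23 did (median 2006, range 6 to 19689). Among all control cells, 35 at 48 h and 52 at 72 h did, so many lay outside the cluster. The cluster held 3.5%, 5.5%, 70.0% and 76.3% of the Defa24 UMIs of mice 1 to 4. Over all control cells of a mouse, Defa36 UMIs per 100 Defa24 UMIs were 1.11, 1.25, 0.851 and 0.62 in mice 1 to 4 and 7.34, 11.9, 10.5 and 13.2 in mice 5 to 8. This ratio was chosen after the values were seen and has no test. The groups did not overlap in it, but the single Paneth-like cell of mouse 2 had 16.4. In the GFP-high clone cells of the same mice the ratio was 1.44, 0.943, 25.9 and 2.55 in mice 5 to 8, and 7.55, 11.4, 3.45 and 4.35 in mice 1 to 4, where it rests on 4, 5, 2 and 1 Defa36 UMIs. The clones' own log2 change was 3.75 for Defa36 (adjusted p = 0.582) and 3.58 for Defa24 (adjusted p = 0.061, edgeR), and neither passed.

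**Figure D2:**
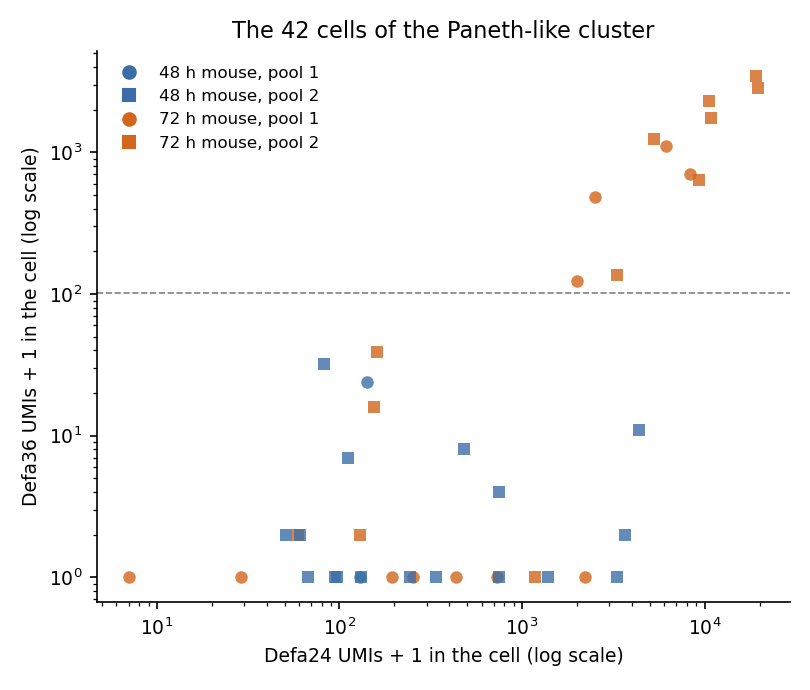
Defa24 UMIs (horizontal) against Defa36 UMIs (vertical) in each of the 42 cells of the Paneth-like cluster, both plus 1 and on log scales, with circles for pool 1, squares for pool 2 and a dashed line at 100 Defa36 UMIs. The 11 cells on or above the line are all from 72 h mice, while 48 h cells reach 4376 Defa24 UMIs with at most 31 of Defa36.

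How much single cells carried can be read from the largest cell of each mouse. It gave 52.4%, 98.4%, 81.0% and 38.6% of the Defa36 UMIs of mice 5 to 8. The 72 h level of Defa36 in mouse 6 thus came almost wholly from 1 cell. As a measure of free RNA, the 79 enterocyte-like cells of 48 h mice held 3 Defa36 UMIs in all and the 99 of 72 h mice held 5, at median depths of 25626 and 25606 UMIs per cell. With the Paneth-like cluster taken out of every sum, no gene passed in edgeR (936 had an unadjusted p under 0.05), and Defa36 had a log2 fold change of -0.31. The cluster was defined by Paneth products and held most UMIs of the called genes other than Tm4sf4. For those genes the loss of the call was thus largely fixed in advance and tests nothing.

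Tm4sf4 (chromosome 3, 57425314 to 57441677) was at 38.1, 29.2, 28.4 and 31.4 CPM at 48 h and at 58.5, 56.8, 49.7 and 58.2 CPM at 72 h. The groups did not overlap and each was narrow. The log2 fold change was 0.81 ± 0.11 (SE, adjusted p = 0.0259, edgeR), with 0.78 in pool 1 and 0.86 in pool 2, and it was 0.77 without the Paneth-like cluster (adjusted p = 0.570). Its call was lost without any 1 of mice 2 to 7, at values of 0.76 to 0.85. Within goblet-like cells it was at 75.2, 21.2, 57.1 and 63.9 CPM at 48 h and 223, 191, 167 and 92.2 CPM at 72 h (1.46 ± 0.26, adjusted p = 0.0535).

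Comparing the same class of cells in both sets asks whether a difference lay within a cell class. A class was tested where at least 10 of its cells were present in at least 3 mice of each time. The calls were few in each: 2 of 6144 genes in stem-like cells (0.0326%), 6 of 7904 in dividing cells (0.0759%), 1 of 6292 in goblet-like cells (0.0159%), 4 of 7161 in enterocyte-like cells (0.0559%) and 3 of 5515 in cluster 10 (0.0544%). Each p below is from edgeR's quasi-likelihood test, adjusted over the genes tested in that class.

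Scd2, a stearoyl-CoA desaturase that makes monounsaturated fatty acids, fell in goblet-like and in dividing cells. In goblet-like cells it was at 328, 293, 356 and 398 CPM at 48 h and at 133, 92.7, 206 and 195 CPM at 72 h (log2 fold change -1.14 ± 0.15, SE, adjusted p = 0.00151). In dividing cells it was at 410, 431, 616 and 476 CPM and at 233, 109, 167 and 334 CPM (-1.16 ± 0.20, adjusted p = 0.0241). Neither class overlapped between the times. The goblet-like call held whichever mouse was left out, and the dividing call was lost without mouse 1, 2, 3 or 7. In stem-like cells Scd2 had -0.71 ± 0.26 and in enterocyte-like cells -0.38 ± 0.31, and neither passed.

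Dividing cells had further calls, all higher at 72 h, of which 4 are described. Ddit4, a stress-induced inhibitor of mTORC1 signalling, was at 20.3, 28.1, 22.3 and 20.0 CPM at 48 h and 69.1, 143, 71.8 and 34.6 CPM at 72 h (1.64 ± 0.28, SE, adjusted p = 0.0241). Sgk1, a serine/threonine kinase, was at 7.44 to 14.0 CPM at 48 h and at 57.0, 70.6, 32.7 and 12.3 CPM at 72 h (1.85 ± 0.32, adjusted p = 0.0241). Sgk1 overlapped between the times through mouse 8.

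Ctsh, a lysosomal cysteine protease, rose in dividing cells from 21.2 to 34.6 CPM across the 48 h mice to 45.7 to 76.2 CPM across the 72 h mice (1.13 ± 0.19, SE, adjusted p = 0.0241). The non-coding transcript 2410006H16Rik was at 108 to 170 CPM and at 219 to 382 CPM (0.94 ± 0.17, adjusted p = 0.0341). Neither overlapped between the times. Leaving out mouse 1, 3 or 7 took the calls in dividing cells to 0.

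In stem-like cells Hspa1b, an inducible HSP70 chaperone, rose from 7.36, 4.17, 22.1 and 24.5 CPM to 42.5, 30.3, 381 and 63.4 CPM (3.11 ± 0.48, SE, adjusted p = 0.0147). Mouse 7 stood far above the rest, and without it the value was 1.79 and did not pass. The part of this mouse's high mitochondrial share in these levels was not tested. Top2a, the DNA topoisomerase of dividing cells, was at 40.2 to 121 CPM across the 48 h mice and fell, to 8.36 to 40.4 CPM across the 72 h mice (-1.56 ± 0.28, adjusted p = 0.0452). Its groups overlapped through mice 4 and 5. The call was lost without any 1 of mice 1, 2, 3, 5, 6 or 7, and with coarser or finer clustering (-0.81 and -1.19).

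Enterocyte-like cells were tested without mouse 2, which had 8 of them. Hspa1b (2.13 ± 0.24) and its near-identical neighbour Hspa1a (3.55 ± 0.39, adjusted p = 0.00104 for both) were called, but both overlapped between the times. Hspa1a was at 0 to 18.9 CPM at 48 h, at 13.3 and 5.89 CPM in mice 5 and 6 and at 250 and 120 CPM in mice 7 and 8. Reads of the 2 copies may not be told apart, so their separate levels are uncertain. The highest values were in the 72 h mice of pool 2, and both calls were lost without mouse 3.

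Fosb, an immediate early transcription factor, rose in the same cells from 108, 159 and 125 CPM to 343, 401, 318 and 249 CPM (1.24 ± 0.20, SE, adjusted p = 0.0427). Btg2, an antiproliferative gene of the immediate early and p53 responses, rose from 158, 236 and 176 CPM to 376, 442, 503 and 352 CPM (1.15 ± 0.19, adjusted p = 0.0427). Neither overlapped between the times. Both lost the call with any 1 of 6 mice left out (1, 3, 4, 5, 6 or 7), and at a finer clustering enterocyte-like cells had no call.

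Cluster 10 could be tested in 3 mice of each time (mice 2 and 7 had under 10 cells). Reg3g and Reg3b, secreted lectins that act against bacteria, were called higher (2.37 ± 0.28, adjusted p = 7.91e-05, and 2.46 ± 0.37, adjusted p = 0.00169, SE). Reg3g was at 116, 1485 and 739 CPM in mice 1, 3 and 4 and at 893, 518 and 5091 CPM in mice 5, 6 and 8. Groups overlapped over both pools, and within each pool the 72 h mice were higher. Pool 1 had only mouse 1 at 48 h, and pool 2 only mouse 8 at 72 h. Reg4, a related secreted lectin, was called lower (-3.20 ± 0.49, adjusted p = 0.00177) at 219, 20.3 and 87.2 CPM against 25.5, 31.1 and 0 CPM, which overlapped too. Without mouse 5 the calls of Reg3b and Reg4 were lost, and without mouse 1 the value of Reg4 was -7.24. In no other class was Reg3g called, at 0.97 in goblet-like, 0.15 in enterocyte-like, -0.01 in dividing and -0.32 in stem-like cells. Goblet-like cells also had it lowest in mouse 1 (315 CPM) and highest in mouse 8 (6314 CPM).

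**Figure D3:**
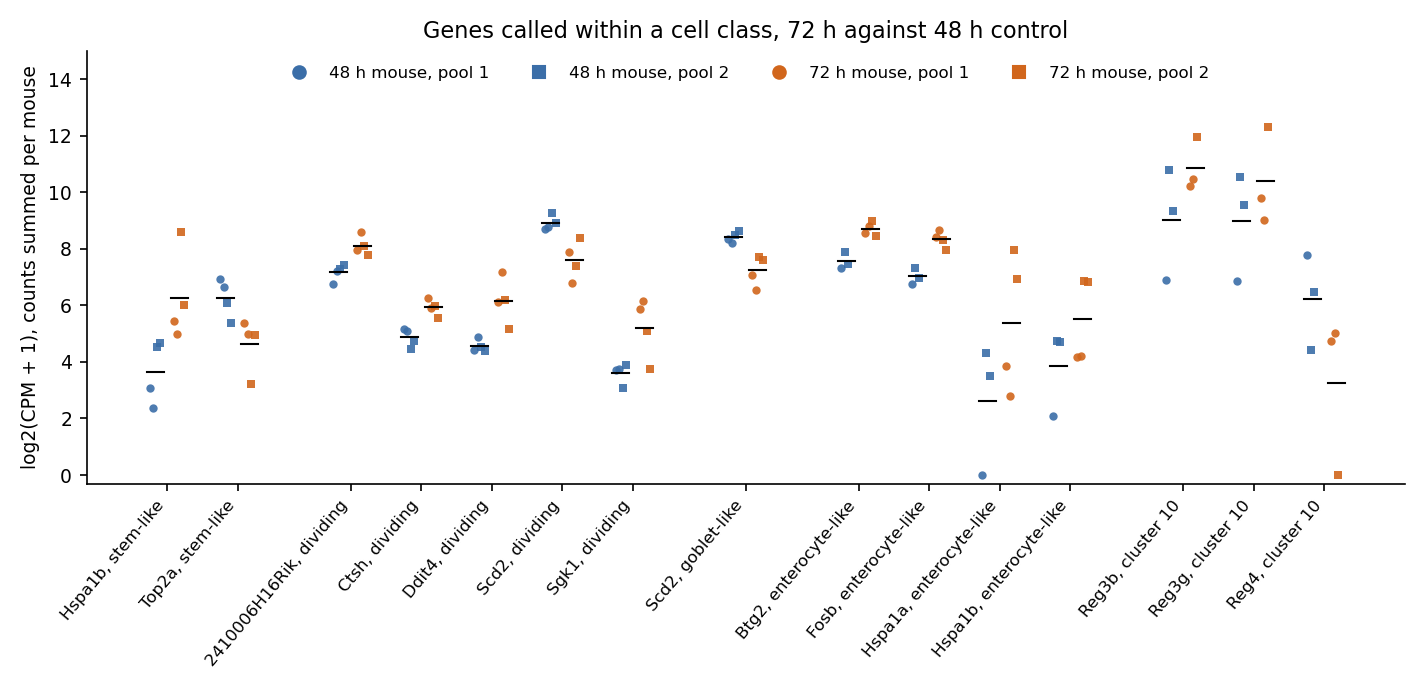
15 of the 16 calls within a cell class, as log2(CPM + 1) of counts summed per mouse within that class, with circles for pool 1, squares for pool 2 and bars at the means of the log2 values. Scd2 lies lower at 72 h without overlap in dividing and goblet-like cells, while the heat shock genes Hspa1a and Hspa1b in enterocyte-like cells are high in the 72 h mice of pool 2.

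Gene lists of known processes describe the genes that did not pass one by one. For each, members at an unadjusted p under 0.05 were counted over all control cells, beside 4.66% higher and 3.98% lower over all genes. The same counts were taken within pool 1, where 11.0% of 10625 genes were higher and 11.1% lower, and within pool 2, where 1.45% of 11107 were higher and 0.927% lower. Mice of both pools were different animals, and each pool compared 2 against 2 mice.

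Fatty acid oxidation was the list with the most members higher outside Paneth products, 12 of 16 tested and none lower (median log2 fold change 0.43). Hadha, a subunit of the mitochondrial trifunctional protein, was at 117, 131, 128 and 141 CPM at 48 h and 170, 204, 159 and 144 CPM at 72 h (0.38 ± 0.12, SE). Acaa2, the last thiolase step, was at 57.5 to 92.3 CPM and 84.9 to 142 CPM (0.71 ± 0.19). Slc25a20, the carnitine carrier, had 0.61 ± 0.21, and Cpt1a, which admits fatty acids to mitochondria, 0.41 ± 0.16. None of these passed after adjustment. In pool 1, 16 of 17 members were higher (11 called, median 0.64), and in pool 2 no member reached an unadjusted p under 0.05, with 13 of 16 positive and a median of 0.25. The pool-by-time term gave adjusted p values of 0.509 for Acaa2 and 0.535 for Hadha, so a difference between the pools was not shown.

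MHC class II genes, which crypt epithelium uses to present antigen to T cells, pointed lower in both pools. Of 7 tested, 5 were lower at an unadjusted p under 0.05 and none higher (median -0.59), 2 of 7 in pool 1 and 6 of 7 in pool 2. Ciita, the master transactivator of the class, was at 12.3, 15.6, 25.1 and 31.4 CPM at 48 h and 8.94, 14.0, 6.95 and 8.97 CPM at 72 h (-1.07 ± 0.30, SE, adjusted p = 0.565). H2-Aa, an alpha chain, was at 142 to 290 CPM and 79.0 to 206 CPM (-0.83 ± 0.27). Groups overlapped in both genes. In the classes, which share the mice, the counts were 7 of 7 in stem-like cells (4.13% of all genes higher and 4.26% lower there), 4 of 7 in dividing cells (6.49% and 4.01%), 6 of 6 in goblet-like cells (3.32% and 2.59%) and 4 of 7 in enterocyte-like cells (2.26% and 1.91%), all lower. Cluster 10 had 0 of 6 (median -0.43), and of all 5515 genes tested there only 125 were higher and 66 lower at the same limit. No member passed after adjustment in any class, and Ciita in stem-like cells came nearest (-1.36 ± 0.26, adjusted p = 0.0511). Summed over the list, the 48 h mice had 1442 to 2955 CPM and the 72 h mice 1087 to 2145 CPM.

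Interferon response genes were mixed, 2 of 22 higher and 6 lower (median -0.35). The immunoproteasome subunit Psmb8 was at 198, 293, 364 and 224 CPM at 48 h and 87.4, 145, 118 and 247 CPM at 72 h (-0.88 ± 0.27, SE). The interferon-inducible GTPases Igtp and Iigp1 had -1.39 ± 0.42 and -2.42 ± 0.77. Isg15, a ubiquitin-like modifier, had the other sign (0.69 ± 0.28). Groups overlapped for these 4 genes.

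Cholesterol synthesis and protein folding in the endoplasmic reticulum had more members lower than higher. Of 21 cholesterol genes 8 were lower and none higher (median -0.29), 14 in pool 1 and none in pool 2, where 14 of 21 were negative (median -0.04). Sqle, squalene epoxidase, was at 71.7 to 91.1 CPM at 48 h and at 48.8, 33.4, 70.5 and 76.3 CPM at 72 h (-0.51 ± 0.20, SE). Mouse 6 was the lowest of all mice, and groups overlapped. Of 19 folding genes 7 were lower (median -0.33), 15 in pool 1 beside 1 higher, and none in pool 2, where the median was 0.04. The chaperone Hsp90b1 was at 1010 to 1166 CPM at 48 h and at 797, 710, 900 and 1092 CPM at 72 h (-0.34 ± 0.13). The pools were not shown to differ, with pool-by-time adjusted p values of 0.391 for Sqle and 0.459 for Hsp90b1.

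Cytosolic ribosomal proteins had 4 of 24 members higher (median 0.23), all 24 in pool 1 and none in pool 2 (median 0.00). By class, all 24 were higher in dividing cells, 1 in goblet-like cells and 0 in stem-like, enterocyte-like and cluster 10 cells. Immediate early genes had 4 of 22 higher and 1 lower over all cells, 10 of 20 higher in dividing cells, 7 of 19 in goblet-like cells and 8 of 15 in enterocyte-like cells, 2 of 19 in cluster 10 and 0 of 19 in stem-like cells, with none lower in these classes. In pool 1, 8 of 22 were higher and none lower, and in pool 2 none were higher and 2 lower. Heat shock genes had 3 of 13 higher. Enterocyte genes had 6 of 18 higher and none lower (median 0.42), with Mep1a, a brush border protease, at 18.0 to 34.3 CPM and 36.9 to 50.9 CPM (0.69 ± 0.20, SE). The p53 targets had 5 of 18 higher (median 0.24), among them Ccng1, cyclin G1, at 21.0 to 25.2 CPM and 30.3 to 35.8 CPM (0.52 ± 0.11) and Cdkn1a, the cell cycle inhibitor p21 (0.46 ± 0.12). Ccng1 and Mep1a did not overlap between the times, and neither passed after adjustment (adjusted p = 0.384 and 0.565).

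Replication genes of G1/S had 4 of 20 lower and none higher (median -0.36). Mitotic genes of G2/M had none in either direction over both pools, but 17 of 20 lower in pool 1 and none in pool 2, where all 20 had a positive sign (median 0.25). Stem cell genes and goblet genes had none of 17 and none of 18 past an unadjusted p under 0.05 over both pools. In pool 1, 8 of 17 stem genes were higher (median 0.31) and 6 of 18 goblet genes lower (-0.19), and in pool 2, 1 of 18 stem genes was lower (-0.08) and 3 of 18 goblet genes higher (0.46). Within goblet-like cells 9 of 18 goblet genes were higher and none lower. Tuft cell genes had opposite medians in the pools, -0.95 and 1.74, as had the numbers of tuft-like cells, 4, 6, 0 and 3 in the 48 h mice and 4, 2, 1 and 11 in the 72 h mice. Many lists had medians of the same sign in both pools. Among them were MHC class II, enterocyte (0.39 in each), xenobiotic metabolism (0.26 and 0.32) and fatty acid oxidation genes. Paneth genes (1.73 and 3.14), p53 targets (0.41 and 0.19) and G1/S genes (-0.48 and -0.15) were others. Signs were opposite for tuft, stem, goblet, G2/M and folding genes, among others.

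**Figure D4:**
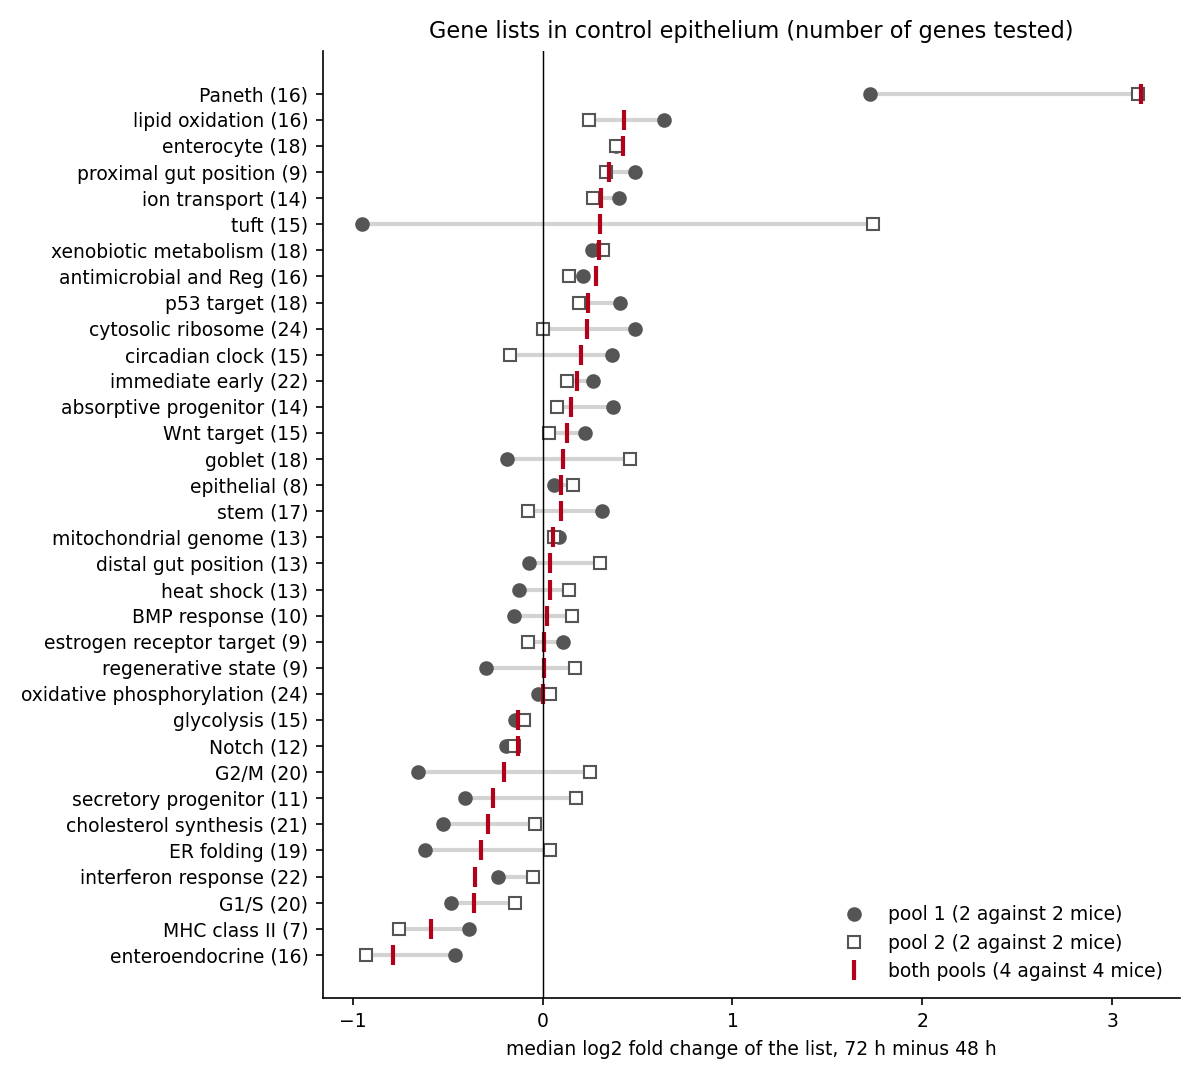
Median log2 fold change (72 h minus 48 h) of each gene list with at least 7 members tested, in pool 1 (filled circles, 2 against 2 mice), pool 2 (open squares, 2 against 2 mice) and both pools (red bars, 4 against 4 mice). Numbers in parentheses are the genes tested over both pools, and the Paneth list lies at 3.15 while every other list lies between -0.79 and 0.43.

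Mouse 8 stood nearer to the 48 h mice than the other 72 h mice did. On the first principal component of all genes (26.5% of the variance) the 48 h mice lay between -21.1 and -10.6, mice 5, 6 and 7 at 14.2, 15.9 and 40.8, and mouse 8 at -9.44. Without mouse 8 the number of called genes over all cells was 36, against 12. Without both mouse 8 and the Paneth-like cluster it was 19, against 0 with mouse 8. Mouse 8 also held the 1 immune cell and the most tuft-like and Paneth-like cells of the 72 h mice, and their part in its position was not tested.

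No class share passed after adjustment over 8 classes (exact two-sided permutation tests over mice). The smallest p that 4 against 4 mice can give is 0.0286, or 0.229 adjusted for a single class, so the design could not show a difference in 1 class alone. Dividing secretory cells were 7.24%, 3.30%, 4.39% and 3.09% of control cells in mice 1 to 4 and 1.21%, 0.75%, 2.44% and 2.75% in mice 5 to 8. Their share was lower in every 72 h mouse than in every 48 h mouse, on 29 and 11 cells (4.5% ± 1.91 against 1.79% ± 0.96, SD, n = 4, exact permutation p = 0.0286, adjusted p = 0.229). Stem-like cells were 12.5% to 24.1% and 7.69% to 36.6%, with a difference of 17.1 percentage points in pool 1 and -5.11 in pool 2. Enterocyte-like cells were 12.0% ± 3.94 and 15.6% ± 2.67 (SD, n = 4, exact permutation p = 0.143, adjusted p = 0.571).

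**Figure D5:**
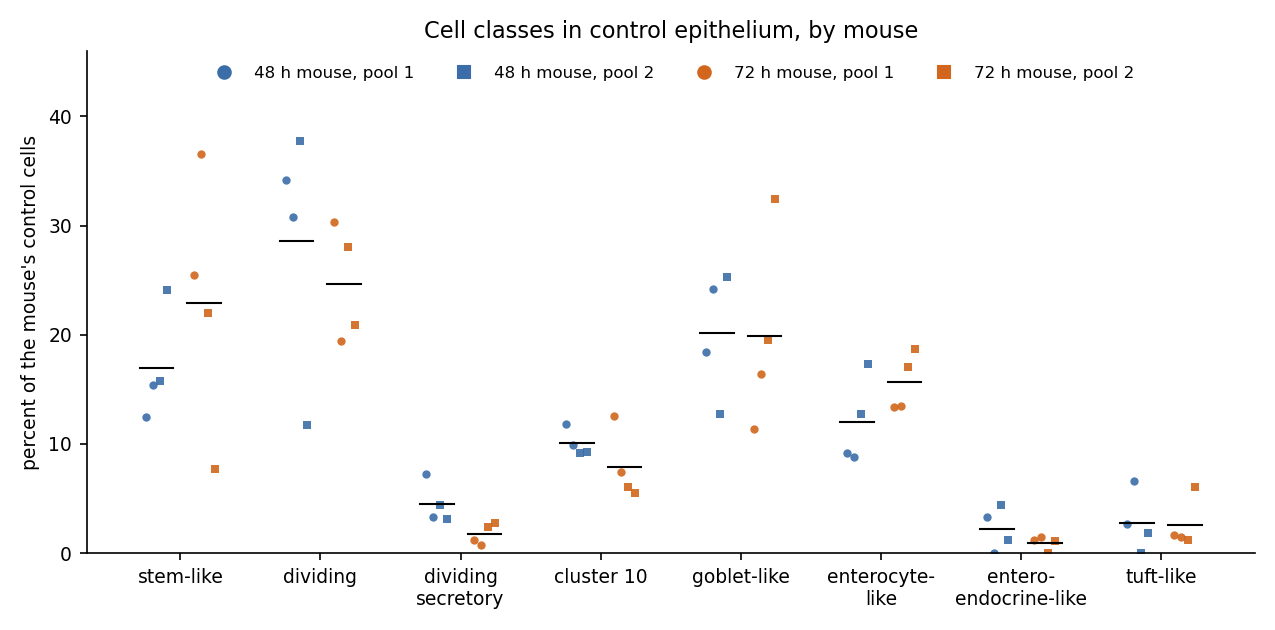
Share of each cell class among a mouse's control cells, in percent, by mouse (circles pool 1, squares pool 2) with bars at the means. Dividing secretory cells lie lower in the 72 h mice without overlap, while stem-like cells of 72 h mice spread from 7.69% to 36.6%.

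Clones of the same mice allow a test of whether a difference between the times was larger in one gate than in the other. None of the 12 genes that rose in control cells was called for a change of the clone to control difference (adjusted p of 0.253 or higher, edgeR with mouse as a block). Within the clones none of the 11 with a value passed (adjusted p of 0.523 or higher, edgeR). Their 72 h minus 48 h log2 changes ran from 0.82 for Defa34 to 7.68 for Gm7861. The 48 h clones had no UMI of Gm7861 or Habp2, so the changes of these genes could only be positive. The 48 h clones held 4, 18, 46 and 8 cells, which limits that test. Of 11284 genes 5 were called (0.0443%): Sst, Ghrl, Gcg and Chgb, which are enteroendocrine hormones and a granule protein, and Guca2b, uroguanylin. Sst had 5394 control UMIs in mouse 3 and 1 to 6 in each other mouse, and Ghrl 185 in control cells of mouse 3 and 158 in clone cells of mouse 8. The 72 h clone UMIs of Gcg and Chgb lay almost wholly in mouse 8 (2517 and 2251). Guca2b had 258 to 935 control UMIs in every mouse, and its clone UMIs were 0, 7, 8 and 1 in the 48 h mice and 375, 131, 194 and 812 in the 72 h mice.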

How the data were processed

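Single-cell RNA and hashtag antibody libraries of 2 pools were used. The deposited matrices hold whole-number counts per barcode (UMIs per gene and counts per hashtag), made with Cell Ranger 6.1.2 on mm10 per the submitters' processing notes and the file headers. Beside them, feature names and barcodes were deposited (other values). The authors' hashtag caller and cell limits are not given in the sources used here. Members and gene lists were chosen with earlier results of these data known.

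Hashtag and pool gave mouse, time and gate per the labels. Doublets were not called, and the 60% hashtag limit removes barcodes with mixed hashtags only. No barcode was shared between the pools among control cells (1 among all barcodes). Cells were scaled to 10000, log-transformed and clustered in scanpy 1.11.5 (2000 variable genes, 30 components, 15 neighbours, Leiden resolution 1.0), after 1 immune cell had been set aside from clustering but kept in the sums. A cluster was named from at least 3 markers among its 50 leading genes, unless another class had more markers among its 10 leading genes by ratio.

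Counts were summed per mouse and tested, two-sided, with edgeR 4.0.16 in R 4.3.3 (quasi-likelihood test with a pool term, TMM factors, genes kept by filterByExpr), and genes with Benjamini-Hochberg adjusted p under 0.05 were called. Within the pools the fit held 2 against 2 mice. The test was tested on simulated data. DESeq2 1.42.0 was an alternative. CPM are scaled to TMM library sizes. The mice were separate animals. Depth per mouse was 1975221 to 5452604 UMIs. Named were the genes called (1 called gene and some list members are not reported here), and from the lists the 3 most abundant members or any member at an unadjusted p under 0.05. Genes that missed the threshold within a class, the Defa36 to Defa24 ratio and the limit of 100 UMIs were chosen after their values were seen. All 643 genes of the named table matched GENCODE M21.

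Alternatives were other mitochondrial, hashtag and UMI limits, HTODemux (Seurat 5.3.0), thinning to 1000 UMIs, no low-count filter, at least 10 CPM in at least 4 mice, 2000 UMIs, no pool term, single pools, 16 sums with clones, other clustering resolutions and each mouse left out. Sums without the Paneth-like cluster, with a Y-linked term and with a pool-by-time term were added after the data were seen.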

Additional observations from a re-analysis of the deposited data

Results flagged for a closer look

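Of 68 groups of 4 mice examined for 1 mouse far from the others, 4 held one, and chance flags about 1 in 20. Defa34 at 48 h was at 8.86 CPM in mouse 4, with the next at 0.883. AY761184 at 48 h was at 32.6 CPM in the same mouse, with the next at 9.71. The share of tuft-like cells at 72 h was 6.04% in mouse 8, with the next at 1.62%. Hspa1b in stem-like cells at 72 h was at 381 CPM in mouse 7, with the next at 63.4.

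For 5 genes the control minus clone difference changed between the times in edgeR's interaction test with mouse as a block (Benjamini-Hochberg adjusted), on the log2 scale. The change was -7.99 for Sst (adjusted p = 0.00043), -8.25 for Ghrl (adjusted p = 0.00357), -2.48 for Chgb (adjusted p = 0.0101), -4.31 for Gcg (adjusted p = 0.0142) and -2.55 for Guca2b (adjusted p = 0.0384). Of the 52 UMIs of Chgb in 48 h clones, 50 lay in 1 cell. Clones of mice 5 to 8 had 4, 0, 3 and 2517 UMIs of Gcg and 4, 0, 7 and 2251 of Chgb, so both rest on mouse 8 at 72 h.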

How the results depend on the processing

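Against 12 genes called over all control cells, 2 were called without the pool term, 28 by DESeq2, 304 without the low-count filter, 19 at a mitochondrial limit of 10%, 1 with a top hashtag of at least 80%, 7 with HTODemux, 6 after thinning to 1000 UMIs, 617 in pool 1 alone, 5 with 16 sums, 19 with a Y-linked term and 0 without the Paneth-like cluster. The last 2 were added after the data were seen, and removing the cluster takes out most UMIs of the called genes other than Tm4sf4. The 80% hashtag limit kept 89, 84, 220 and 153 cells in mice 1 to 4 and 82, 42, 42 and 160 in mice 5 to 8. Leaving out 1 mouse gave 7 to 36, and 0 to 19 without the Paneth-like cluster. Stem-like cells (2 called) had 1 at resolution 0.6, 1 at 1.5, 1 by DESeq2, 62 without the filter and 0 to 42 with a mouse left out. Dividing cells (6) had 63 by DESeq2, 177 without the filter and 0 to 101 with a mouse left out. Goblet-like cells (1) had 7, 51 and 1 to 11 in the same order. Enterocyte-like cells (4) had 2 at resolution 0.6, 0 at 1.5, 26 without the filter and 0 to 4 with a mouse left out, and cluster 10 (3) had 12 without the filter and 1 to 84. Between the pools 0 genes passed in edgeR (889 had an unadjusted p under 0.05), DESeq2 28, thinned counts 11, and 0 to 9 with a mouse left out. The cause of these shifts was not tested.

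No paired analysis was possible because the 48 h and 72 h mice are different animals. For the clone to control difference, the fit with mouse as a block called 5 genes, the fit with no replicate block 0, DESeq2 2, and 3 to 37 with a mouse left out.

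Of the differences that changed sign, only that of Defa36 had passed its test. For shares in percentage points, dividing cells had 3.08 at a mitochondrial limit of 10% and 2.54 with a top hashtag of 80%. Goblet-like cells had 2.89 at resolution 0.6, 6.95 in pool 2 and -4.40 to 2.63 with a mouse left out. Stem-like cells had -5.11 in pool 2. Tuft-like cells had 0.155 at a limit of 50%, 2.71 in pool 2 and -1.32 to 1.10 with a mouse left out. Cells per mouse differed by -55.0 with a top hashtag of 80% and by -25.2 to 29.8 with a mouse left out, median UMIs by -2329.1 at a limit of 50%, median genes by -88.5 and -542.0 at limits of 10% and 50% and by -134 to 163 with a mouse left out, and the mitochondrial share by -0.314 to 0.661. On the log2 scale Acadm had -0.0529 and Cpt1a -0.20 after thinning, Fdps had 0.036, Hmgcs1 0.052 and Hspa5 0.0661 in pool 2, Stard4 had -0.0225 with a top hashtag of 80% and -0.0327 in pool 1, and Defa36 had -0.31 without the Paneth-like cluster.

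The Paneth-like cluster held 1 to 10 cells per mouse, so levels of Paneth products rest on few cells, and a class under 10 cells in a mouse was not tested there.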

Other observations

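Enteroendocrine genes had a median log2 fold change of -0.79 over 16 tested, with 1 lower at an unadjusted p under 0.05, and enteroendocrine-like cells numbered 5, 0, 10 and 2 in mice 1 to 4 and 3, 2, 0 and 2 in mice 5 to 8. Their share differed by -1.28 percentage points (exact permutation test, adjusted p = 0.571), and by -0.56 without mouse 3. Oxidative phosphorylation genes had a median of 0.00 over 24 tested and glycolysis genes -0.13 over 15, with none at an unadjusted p under 0.05 in either list. Genes encoded by the mitochondrial genome had a median of 0.05 over 13 tested, also with none.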
